A study of Macaca mulatta with 8 samples.

Results

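The heat shock proteins and their J-domain partners were examined across the cell types of the developing macaque hippocampus. Members were the genes whose symbol in the deposited feature list names a numbered HSPA, HSPB, HSP90, HSPD, HSPE, HSPH, DNAJA, DNAJB or DNAJC gene, and 61 of the 21748 genes met that rule, of which 22 are HSP genes and 39 are DNAJ genes. By symbol they comprise 10 HSPA genes, 1 HSPH (HSP110) gene, 2 HSP90 genes and 7 HSPB genes, most of which encode small heat shock proteins. The others are 2 genes of the mitochondrial chaperonin, 3 DNAJA genes, 11 DNAJB genes and 25 DNAJC genes. HSPA symbols mostly name HSP70 genes, but HSPA4 and HSPA4L are relatives of HSPH1. Family genes that this match on symbols did not take up, such as HSP90AB1, HSPA1A and DNAJA1, were not analysed here.

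HSP70 proteins bind exposed stretches of unfolded proteins and release them in a cycle driven by ATP. J-domain proteins (the DNAJ families) bring clients to HSP70 and start its ATP hydrolysis, HSP110 proteins exchange the spent nucleotide, HSP90 acts later on nearly folded clients, and small heat shock proteins hold unfolded proteins without using ATP. Some members are induced by heat or other stress, others are made all the time, and separate members serve the cytosol, the endoplasmic reticulum and the mitochondrion; in brain the family also has dedicated roles in clathrin uncoating, in synaptic vesicle release and in cilia.

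The study measured RNA in single nuclei of the hippocampus of young male rhesus macaques (Macaca mulatta) with 10x Genomics 3′ libraries, which count each captured RNA once through a unique molecular identifier (UMI). In the sevoflurane group the tissue came from 1 macaque that inhaled the anaesthetic sevoflurane at 2.5 to 3% for 4 h about postnatal day 7 and again at 14 and 28 days, where the labels do not say whether these are days of age or days after the first exposure. In the control group it came from 2 macaques, whose treatment is given as control; what they inhaled is not stated. The tissue of each group was pooled and split into 4 samples, so the 4 samples of a group are portions of 1 pool, and although tissue and title read hippocampus, the growth protocol of the labels speaks of the amygdala. The deposited matrix numbers its libraries from 1 to 8 without naming the sample behind each number, so sevoflurane was not compared with control, libraries were put in no group, and the whole matrix counted as 1 sample.

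The matrix held 331133661 UMIs in 59749 barcodes, with a median of 3189 to 5831 UMIs per barcode in a library. Of these barcodes, 58220 passed the filter on low counts and 54644 nuclei remained after presumed doublets were removed; 860 barcodes (1.44%) carried a sequence found in more than 1 library. Nuclei were clustered on genes other than the members, and clusters were named from fixed marker genes into excitatory-like neurons (16013 nuclei, of which 3108 lay in clusters with dentate granule cell markers such as PROX1, the hippocampal type that the tissue label calls for), inhibitory-like neurons (7048), immature neuron-like nuclei (2078), astrocyte-like (8307), oligodendrocyte-like (5930), newly formed oligodendrocyte-like (1271), oligodendrocyte precursor-like (OPC, 3604), microglia-like (2956), ependymal-like (1163), endothelial-like (455) and fibroblast or mural-like nuclei (415). Another 5321 nuclei in 5 clusters stayed unnamed. The "-like" is left off from here on.

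Levels are given as UMIs per 1000000 UMIs of a class (CPM), which the class's other RNA also sets, and where it matters as UMIs per 100 nuclei, which rises with the depth of the nuclei. With 1 sample no test was possible. A member was called higher or lower in a class where the pooled levels differed at least 2-fold, the higher level was at least 10 CPM and every library that held 50 or more nuclei of each side showed that direction. Intervals in parentheses are exact 95% intervals, cover counting error only, and do not measure variation between animals. A range over libraries describes the libraries, which are not replicates of a known group.

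Of the 61 members, 51 reached 10 CPM in at least 1 of the 11 named classes and 10 did not. The low members were HSPA1L (120 UMIs in all nuclei), the small heat shock protein genes HSPB3 (31 UMIs), HSPB6 (77 UMIs) and HSPB7 (1 UMI), DNAJC4 (1221 UMIs), DNAJC12 (753 UMIs), DNAJC22 (98 UMIs) and DNAJC28 (373 UMIs), and HSPB8 and HSPE1, which had no UMI. A count of 0 among 297296705 UMIs allows a level of up to 0.0101 CPM for HSPB8 (3 counts); for HSPE1, the co-chaperonin of HSPD1, it says little, because the symbol table names 2 rows outside the rule HSPE1 as well. Among the 51 measured members the median ratio of the highest to the lowest class was 3.05-fold. The extremes were DNAJC2, at 1.39-fold, and HSPA12B, at 446-fold. The highest class was ependymal for 14 members, oligodendrocyte for 9, fibroblast or mural for 8, microglia for 6, immature neurons for 5, endothelial for 4, astrocyte for 3 and excitatory neurons for 2. These are pooled levels, and the classes drew unequally on the libraries: the share of a class's nuclei from libraries 1 to 4, whose barcodes were shallower, ran from 21.2% in fibroblast or mural nuclei and 35.4% in excitatory neurons to 97.4% in immature neurons. The part of that make-up in the order was not tested. Per nucleus the order was another, and excitatory neurons, the deepest nuclei with a mean of 9462 UMIs, were highest for 34 members. The counts by highest class and the median ratio were not taken over all genes. Whether the members differ from the background in them was not tested.

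**Figure D1:**
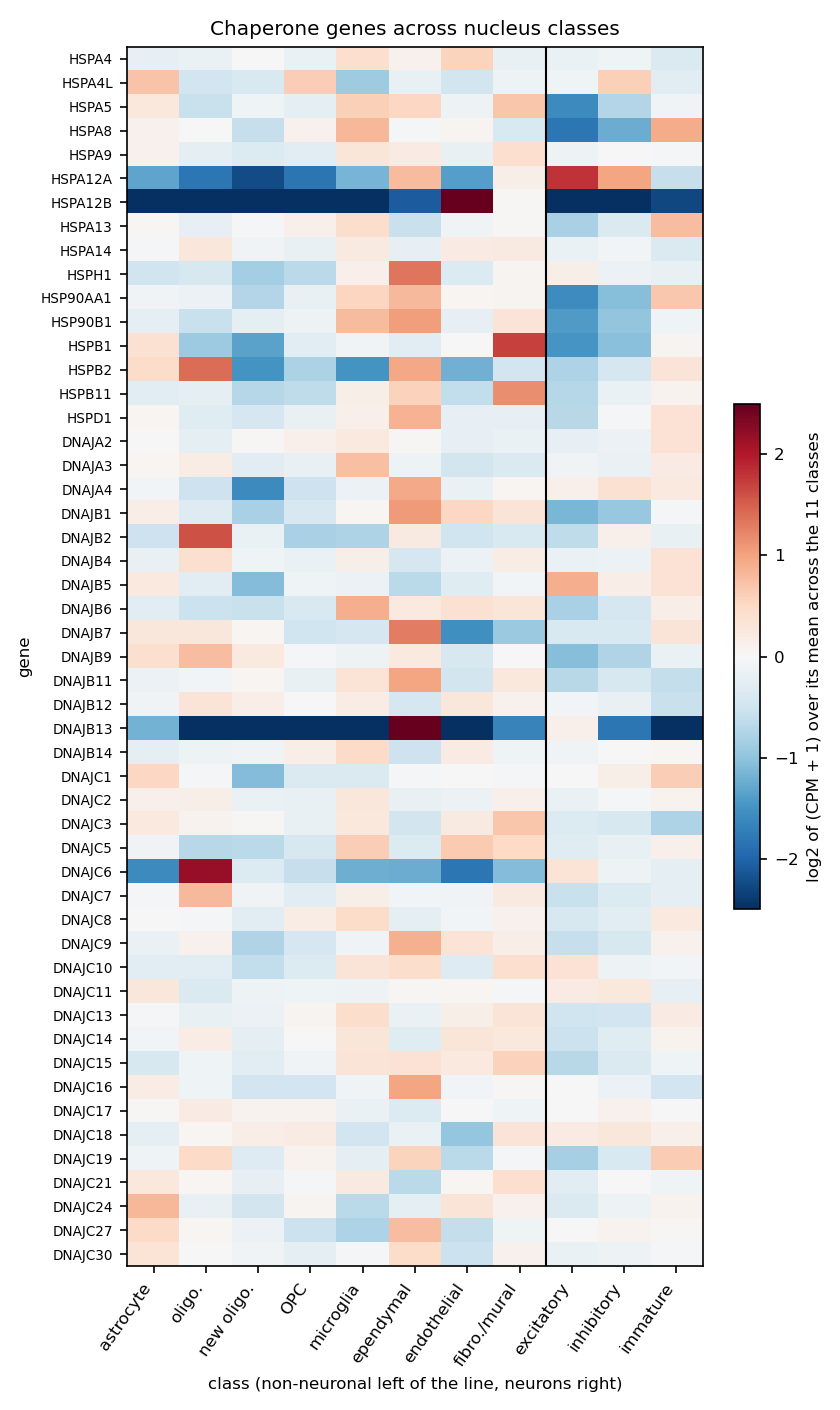
Heat map of the 51 members that reached 10 CPM in a class, in rows, over the 11 named classes, in columns, with non-neuronal classes left of the line and neuronal classes right of it. Colour is the log2 of (CPM + 1) over the member's mean across classes; DNAJB13 stands out in ependymal nuclei, DNAJC6 in oligodendrocytes, HSPA12B in endothelial nuclei and HSPA12A in neurons.

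The summed members took 0.300% of the UMIs in non-neuronal nuclei (0.268 to 0.310% over the 8 libraries) and 0.262% in neurons (0.259 to 0.265%). By class the share was 0.360% in oligodendrocytes, 0.333% in ependymal nuclei, 0.297% in fibroblast or mural nuclei, 0.293% in microglia, 0.290% in astrocytes, 0.272% in endothelial nuclei, 0.247% in OPCs and 0.217% in newly formed oligodendrocytes, against 0.300% in immature, 0.262% in excitatory and 0.259% in inhibitory neurons. In UMIs per nucleus the sum was 7.97 in non-neuronal nuclei and 20.7 in neurons, whose nuclei held a mean of 2659 and 7880 UMIs in all.

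Several general chaperones of the cytosol and the endoplasmic reticulum took a larger share of RNA in non-neuronal nuclei than in neurons. Of 46 members measured in that comparison, 6 were called higher in non-neuronal nuclei, which is 13%, against 18.7% of all genes measured, so the share was below the background; 1 was called lower (2.17%), against 11.7% of all genes. The median log2 ratio of non-neuronal over neuronal CPM was 0.29 for the members and 0.23 for all genes. Beside the members, of a list of regulators of the heat shock response, HSF1 and HSF2 among them, 0 of 4 measured were called either way. Of other co-chaperones 2 of 20 were called higher in non-neuronal nuclei: FKBP5, a glucocorticoid-induced partner of HSP90, at 578 CPM in non-neuronal nuclei and 47.8 CPM in neurons, and CRYAB (αB-crystallin), at 40.7 CPM in non-neuronal nuclei and 4.46 CPM in neurons. FKBP5 was far from even among non-neuronal classes. It had 4472 CPM in microglia, but 104 CPM in ependymal nuclei and 62.4 CPM in newly formed oligodendrocytes, both below the 176 CPM of granule clusters.

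HSPA8 encodes HSC70, the constitutive cytosolic HSP70 that also uncoats clathrin-coated vesicles. By library, HSPA8 lay at 21.9 to 126 CPM in non-neuronal nuclei (median 44.9) and at 11.6 to 53.1 CPM in neurons (median 20.7). The 2 ranges overlap between libraries, yet within each of the 8 libraries the non-neuronal nuclei were higher, by a log2 ratio of 0.65 to 1.24. Pooled, HSPA8 stood at 74.6 CPM in non-neuronal nuclei and 23.9 CPM in neurons, a ratio of 3.12-fold (3.00 to 3.25). That pooled log2 ratio, 1.64, lies above every library's own, so the size of the difference is better read from the libraries. Per 100 nuclei HSPA8 had 19.8 UMIs in non-neuronal nuclei and 18.8 in neurons when pooled, but was lower in non-neuronal nuclei in each of the 8 libraries, by a log2 ratio of -1.35 to -0.13.

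The levels of HSPA8 by class were 125 CPM in microglia, 76.0 CPM in OPCs, 75.7 CPM in astrocytes, 73.1 CPM in endothelial nuclei, 69.3 CPM in oligodendrocytes, 68.9 CPM in ependymal nuclei, 53.9 CPM in fibroblast or mural nuclei and 46.5 CPM in newly formed oligodendrocytes, against 135 CPM in immature, 29.0 CPM in inhibitory and 19.4 CPM in excitatory neurons. Microglia and immature neurons, the 2 shallowest classes with means of 1687 and 1976 UMIs per nucleus, were at the top of this pooled order, and 93.2% and 97.4% of their nuclei came from libraries 1 to 4. Within each of libraries 1 to 4 the same 2 classes were the highest of those with at least 50 nuclei, and in libraries 5 to 8 immature neurons were too few. HSPA8 in microglia was 3.599-fold (3.31 to 3.90) above all other named nuclei, whose level was 34.6 CPM, and was higher in each of the 7 libraries with enough microglia, by a log2 ratio of 1.11 to 1.93. At 2000 to under 4000 UMIs it was no longer called there, at 104.7 CPM in microglia and 72.6 CPM in the rest, 1.44-fold (1.24 to 1.67), higher in 4 of 4 libraries. In astrocytes the ratio was 2.28-fold (2.16 to 2.41) over 33.2 CPM in the rest, with library log2 ratios of 0.59 to 0.94, all below the pooled 1.19. Within excitatory neurons, the granule clusters had 39.2 CPM of HSPA8 and the other excitatory nuclei 16.1 CPM, a ratio of 2.43-fold (2.24 to 2.63). Library log2 ratios were 0.24 to 1.00. The call was lost when libraries were weighted equally, and also at 2000 to under 4000 UMIs.

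HSP90AA1, the inducible cytosolic HSP90, followed HSPA8 in direction. By library it lay at 37.4 to 113 CPM in non-neuronal nuclei (median 65.5) and at 23.1 to 54.4 CPM in neurons (median 30.6). Pooled, HSP90AA1 had 84.8 CPM in non-neuronal nuclei and 33.2 CPM in neurons, a ratio of 2.56-fold (2.47 to 2.65), higher in 8 of 8 libraries by a log2 ratio of 0.69 to 1.27, all below the pooled 1.35. It reached 152 CPM in ependymal nuclei and 126 CPM in microglia, against 138 CPM in immature, 40.5 CPM in inhibitory and 28.3 CPM in excitatory neurons.

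**Figure D2:**
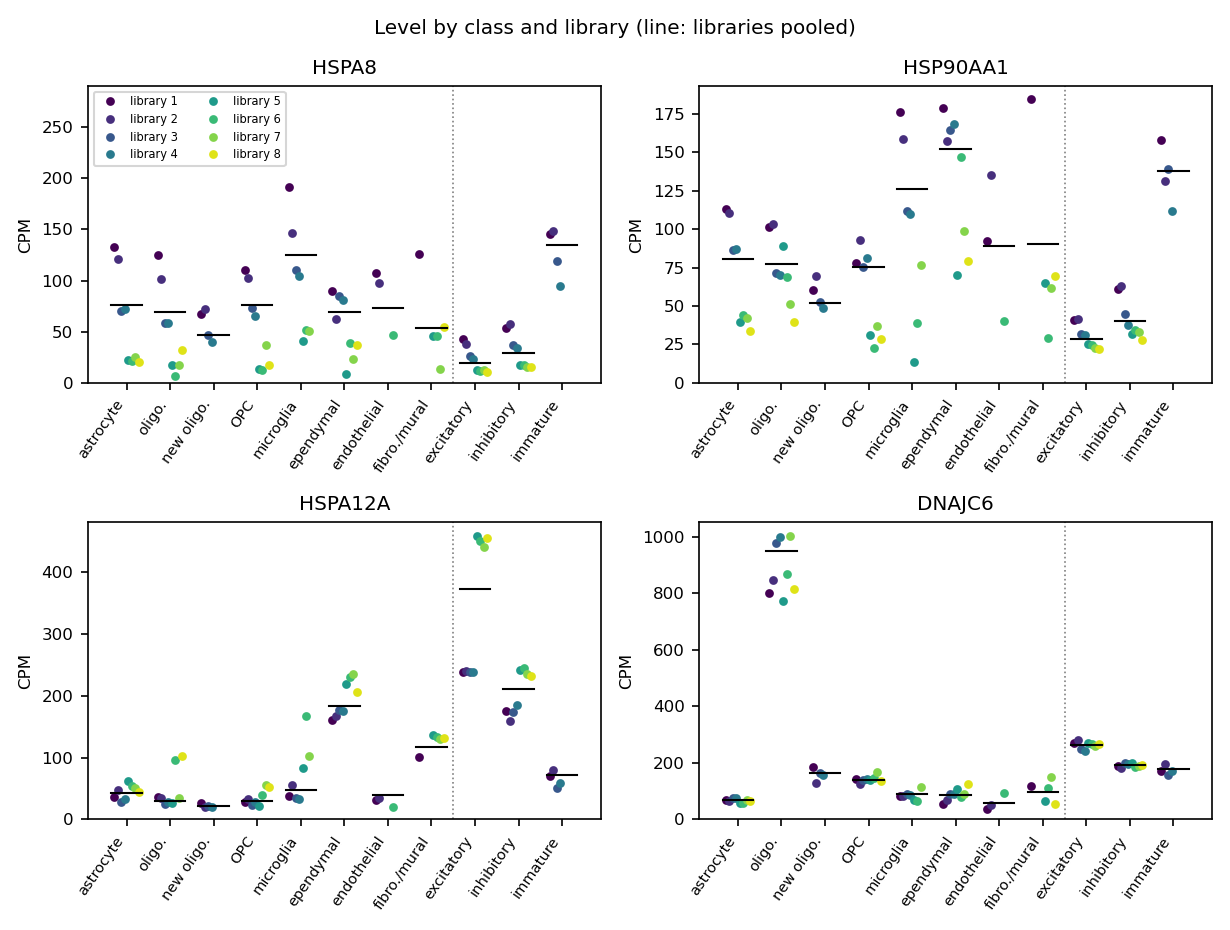
Level in CPM (linear axis) of HSPA8, HSP90AA1, HSPA12A and DNAJC6 by class. Each library that holds at least 50 nuclei of the class has 1 point, and a line marks the pooled level. HSPA8 in excitatory neurons spans 10.6 to 42.9 CPM over libraries, whereas DNAJC6 in oligodendrocytes spans 774 to 1003 CPM.

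The other general cytosolic members were flatter or went the other way. HSPH1, the HSP110 exchange factor, had 42.4 CPM in non-neuronal nuclei and 53.3 CPM in neurons, a log2 ratio of -0.33. HSPA4, a relative of HSPH1, ranged only from 50.2 CPM in immature neurons to 94.9 CPM in endothelial nuclei. HSPA4L, another relative, was highest in astrocytes at 64.2 CPM and was called lower in microglia, at 20.3 CPM against 41.8 CPM in the rest.

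DNAJB1 and DNAJB6 are J-domain partners of cytosolic HSP70. DNAJB1, the heat-induced HSP40, was scarce everywhere, from 1.62 CPM in excitatory neurons to 11.05 CPM in ependymal nuclei, and had 4.74 CPM in non-neuronal nuclei against 1.77 CPM in neurons, under the 10 CPM minimum. DNAJB6, which holds back aggregation of polyglutamine proteins, had 68.2 CPM in non-neuronal nuclei and 47.4 CPM in neurons. In microglia DNAJB6 reached 146 CPM against 50.7 CPM in the rest, but was higher in 6 of 7 libraries and so was not called at all depths. In nuclei of 2000 to under 4000 UMIs it was called, at 133 CPM in microglia and 62.0 CPM in the rest, 2.14-fold (1.87 to 2.45) and higher in 4 of 4 libraries.

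In the endoplasmic reticulum, HSPA5 (BiP, the HSP70 of its lumen), HSP90B1 (GRP94, its HSP90) and DNAJB9 (ERdj4, a J-domain partner of BiP) were all called higher in non-neuronal nuclei. HSPA5 lay at 33.9 to 51.1 CPM in the 8 libraries' non-neuronal nuclei (median 39.7) and at 11.1 to 26.5 CPM in their neurons (median 16.5), so the ranges did not overlap. Pooled, HSPA5 had 43.0 CPM in non-neuronal nuclei and 16.5 CPM in neurons, a ratio of 2.60-fold (2.47 to 2.74). HSP90B1 had 57.7 CPM in non-neuronal nuclei (31.9 to 65.2 by library, median 49.7) and 24.3 CPM in neurons (17.6 to 38.0, median 24.7), a ratio of 2.38-fold (2.28 to 2.48), whose log2 of 1.25 lies just above the libraries' 0.70 to 1.24. DNAJB9 had 21.3 CPM in non-neuronal nuclei (10.6 to 23.7 by library, median 19.7) and 7.69 CPM in neurons (5.92 to 10.7, median 8.08), a ratio of 2.77-fold (2.57 to 2.98). HSP90B1 and DNAJB9 overlapped in range between libraries, but within each library the non-neuronal nuclei were higher.

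HSPA5 was highest in fibroblast or mural nuclei at 68.9 CPM, in microglia at 65.0 CPM and in ependymal nuclei at 61.1 CPM, against 39.7 CPM in immature, 25.1 CPM in inhibitory and 13.5 CPM in excitatory neurons. In astrocytes HSPA5 was called, at 51.1 CPM against 20.8 CPM in the rest, 2.46-fold (2.30 to 2.64). HSP90B1 was called in ependymal nuclei, at 125 CPM against 31.1 CPM in the rest, 4.03-fold (3.67 to 4.42), where library log2 ratios of 1.00 to 1.85 all lay below the pooled 2.01. HSP90B1 was called in microglia too, at 105 CPM against 31.1 CPM in the rest, 3.38-fold (3.09 to 3.69), where library log2 ratios of 0.33 to 1.47 all lay below the pooled 1.76. Other genes of the unfolded protein response, from a list chosen with earlier results known, gave 3 of 14 measured called higher in non-neuronal nuclei (21.4%, against 18.7% of all genes), near the background, among them CALR, a lectin chaperone, at 55.1 CPM in non-neuronal nuclei and 20.6 CPM in neurons, and 0 of 14 at 2000 to under 4000 UMIs. In microglia 6 of 14 were called higher (42.9%, against 14.4% of all genes), among them the transcription factor XBP1 at 50.9 CPM in microglia and 8.16 CPM in the rest, and 6 of 14 at 2000 to under 4000 UMIs too.

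No mitochondrial member was called in that comparison. HSPA9 (mortalin, the HSP70 of the mitochondrial matrix) had 37.8 CPM in non-neuronal nuclei and 36.4 CPM in neurons, and its classes ran only from 31.0 CPM in newly formed oligodendrocytes to 52.6 CPM in fibroblast or mural nuclei. HSPD1 (HSP60, the chaperonin) had 28.2 CPM in non-neuronal nuclei and 20.3 CPM in neurons, a log2 ratio of 0.47, and was called in ependymal nuclei alone among the single classes compared. DNAJC19, which sits at the import motor of the inner membrane, was called in ependymal nuclei, at 72.4 CPM against 35.4 CPM in the rest, and passed 2-fold in oligodendrocytes, at 68.3 CPM against 33.5 CPM in the rest, in 7 of 8 libraries. The cytosolic counterpart, a list of subunits of the chaperonin TRiC and of its partner prefoldin, had 0 of 11 measured genes called higher in non-neuronal nuclei.

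The 2 members with dedicated roles at the clathrin coat and the synaptic vesicle behaved differently from each other. DNAJC6 (auxilin) recruits HSPA8 to clathrin coats and is known from nerve terminals, where its loss causes early parkinsonism in humans. DNAJC6 was highest in oligodendrocytes, at 774 to 1003 CPM by library (median 858) and 950.1 CPM pooled, against 219 CPM in all other named nuclei. The ratio was 4.34-fold (4.27 to 4.42), with library log2 ratios of 1.67 to 2.42. Excitatory neurons had 264 CPM of DNAJC6, inhibitory neurons 192 CPM, newly formed oligodendrocytes 164 CPM and OPCs 140 CPM, whereas astrocytes, at 68.2 CPM, microglia, at 88.7 CPM, ependymal nuclei, at 87.3 CPM, and endothelial nuclei, at 58.6 CPM, were each called lower than the rest. Non-neuronal nuclei together had 343 CPM and neurons 247 CPM, with the non-neuronal level higher in 3 of 8 libraries, so no direction held. DNAJC5 (cysteine string protein, on synaptic vesicles) differed little, at 17.8 CPM in non-neuronal nuclei and 17.3 CPM in neurons, from 12.7 CPM in oligodendrocytes to 33.6 CPM in endothelial nuclei.

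Oligodendrocytes shared 3 further calls. Of 46 members measured, 4 were called higher in oligodendrocytes (8.7%, against 9.59% of all genes) and 3 lower (6.52%, against 21.5%). DNAJB2, a J-domain protein that sorts clients to the proteasome and is mutated in inherited motor neuropathy, lay at 74.2 to 142 CPM by library (median 106) in oligodendrocytes. DNAJB2 had 101 CPM there when pooled and 24.2 CPM in the rest, a ratio of 4.17-fold (3.96 to 4.40), and no other class exceeded 39.0 CPM. HSPB2, a small heat shock protein best known from muscle, lay at 62.2 to 117 CPM by library (median 104) in oligodendrocytes, with 108 CPM pooled against 28.0 CPM in the rest, 3.86-fold (3.67 to 4.06). DNAJC7, a co-chaperone that binds both HSP70 and HSP90, lay at 87.2 to 187 CPM by library (median 155), with 169 CPM pooled against 71.8 CPM in the rest, 2.35-fold (2.26 to 2.44). Libraries 1 to 4 held 95.6% of the oligodendrocytes. In libraries 5 to 8 the levels there rest on 10 to 19 UMIs of DNAJB2, 7 to 15 of HSPB2 and 11 to 19 of DNAJC7. The log2 ratio of DNAJC7 was only 0.52 in library 7 and 0.31 in library 8.

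In nuclei of 2000 to under 4000 UMIs the same 4 genes were called higher in oligodendrocytes, in 4 of 4 libraries with enough nuclei (background 7.98% higher and 24.9% lower). DNAJC6 had 854 CPM in oligodendrocytes and 123 CPM in the rest, DNAJB2 had 101 CPM in oligodendrocytes and 27.1 CPM in the rest, HSPB2 had 119 CPM in oligodendrocytes and 39.4 CPM in the rest, and DNAJC7 had 174 CPM in oligodendrocytes and 86.5 CPM in the rest. The calls of DNAJC7 and HSPB2 have neighbours that bear on them. In the RefSeq annotation of assembly T2T-MMU8v2.0 the DNAJC7 gene overlaps CNP, a myelin gene of oligodendrocytes. CNP itself had 143 CPM in oligodendrocytes and 80.6 CPM in newly formed oligodendrocytes. It had 6.77 CPM in granule clusters and 3.39 CPM in the other excitatory neurons. HSPB2 lies beside CRYAB, another small heat shock protein gene, which had 64.3 CPM in oligodendrocytes and 9.49 CPM in the rest. How far reads of these neighbours entered the 2 members' counts was not tested.

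**Figure D3:**
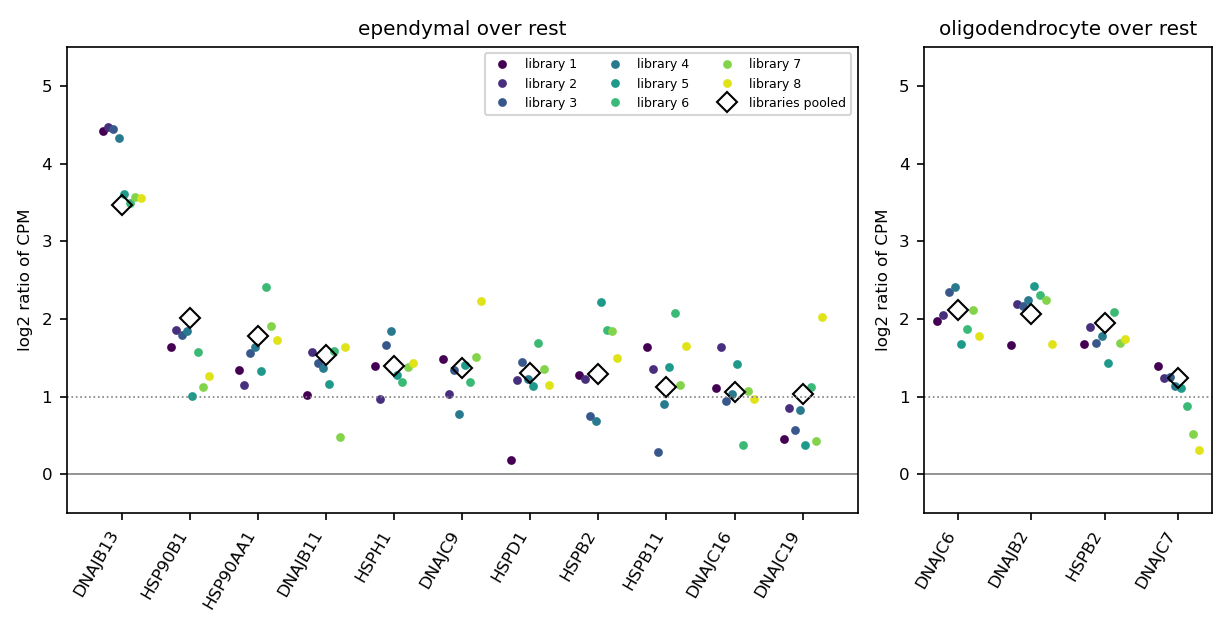
Log2 ratio of CPM in the class over all other named nuclei for the members called higher in ependymal nuclei and in oligodendrocytes, with 1 point per library and a diamond for the pooled ratio. All points lie above 0, from 0.18 (HSPD1 in ependymal nuclei of 1 library) to 4.47 (DNAJB13 in ependymal nuclei).

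Ependymal nuclei, the ciliated lining of the ventricles, had the most calls at all depths of the single classes compared with the rest. At 2000 to under 4000 UMIs they had 9 calls, as many as microglia. Endothelial nuclei had no library with enough nuclei to check a call at that depth. Of 49 members measured, 11 were called higher in ependymal nuclei (22.4%, against 16.5% of all genes) and 1 lower (2.04%, against 15.1%), and the median log2 ratio was 0.26 for the members and 0.09 for all genes. DNAJB13 encodes an axonemal J-domain protein of the radial spokes, whose loss causes ciliary disease in humans. DNAJB13 lay at 211 to 546 CPM by library (median 382) in ependymal nuclei and had 309.6 CPM pooled, against 28.1 CPM in the rest. The ratio was 11.03-fold (10.4 to 11.7), with library log2 ratios of 3.50 to 4.47 all above the pooled one.

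The other called members of ependymal nuclei have various roles. HSP90AA1 lay at 69.9 to 179 CPM by library (median 152), with 152 CPM pooled against 44.2 CPM in the rest, 3.43-fold (3.15 to 3.73). HSPH1 lay at 90.005 to 151 CPM (median 136), with 129 CPM pooled against 49.4 CPM in the rest, 2.62-fold (2.39 to 2.86). DNAJB11 (ERdj3, a soluble BiP partner) had 35.7 CPM in ependymal nuclei and 12.3 CPM in the rest, HSPD1 had 53.7 CPM in ependymal nuclei and 21.8 CPM in the rest, and DNAJC9, a J-domain protein and histone chaperone, had 36.2 CPM in ependymal nuclei and 14.0 CPM in the rest. HSPB2, HSPB11 and 2 further DNAJC genes followed. HSPB11, which despite its symbol encodes a subunit of the intraflagellar transport complex, had 25.4 CPM in ependymal nuclei and 11.7 CPM in the rest, 2.18-fold (1.76 to 2.66). The ratio was 2.45-fold for HSPB2, 2.08-fold for DNAJC16 and 2.05-fold for DNAJC19.

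At matched depth, 2000 to under 4000 UMIs, ependymal nuclei had 8 members called higher (background 12.7%) and 1 lower (background 13.2%), over 5 libraries. The rest changed too: 25139 of its 48160 nuclei were neurons at all depths, and 3143 of 14601 at matched depth. The rest of the other non-neuronal classes lost neurons likewise. How far depth or this make-up moved any call was not tested. DNAJB13 stood at 357 CPM in ependymal nuclei and 9.96 CPM in the rest, 35.8-fold (31.6 to 40.7). HSPH1 had 113 CPM against 39.0 CPM in the rest, and HSP90B1 109.9 CPM against 49.5 CPM. Of the 11 calls at all depths 5 were lost: those of HSP90AA1, DNAJC16, DNAJC19, HSPB2 and HSPB11, the last being 2.11-fold but higher in 4 of 5 libraries. HSP90AA1 stood at 149.6 CPM in ependymal nuclei and 77.3 CPM in the rest, 1.94-fold (1.70 to 2.20), still higher in 5 of 5 libraries. New calls were DNAJA4, at 15.2 CPM in ependymal nuclei and 4.88 CPM in the rest, and HSPA12A, at 183 CPM in ependymal nuclei and 75.4 CPM in the rest. Of the co-chaperones outside the rule, 4 of 21 measured (19%, against 16.5% of all genes) were called higher in ependymal nuclei at all depths and 2 of 20 at matched depth, PTGES3 and SIL1. They include BAG3, which couples HSP70 to small heat shock proteins and autophagy, at 13.4 CPM in ependymal nuclei and 1.77 CPM in the rest at all depths but under the 10 CPM minimum at matched depth, and SIL1, the exchange factor of BiP, at 380.0 CPM in ependymal nuclei and 126 CPM in the rest. Of the TRiC and prefoldin list 1 of 12, the subunit gene CCT6A, was called higher there at all depths, and 0 of 11 at matched depth.

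DNAJB13 was also unequal among neurons. By library it lay at 14.6 to 56.8 CPM in excitatory neurons (median 38.8) and at 4.99 to 13.6 CPM in inhibitory neurons (median 9.84), without overlap. Pooled, excitatory neurons had 41.7 CPM and inhibitory neurons 10.1 CPM, 4.15-fold (3.76 to 4.58). It was the only member called higher among 45 measured (2.22%, against 5.98% of all genes) and 0 were called lower (background 6.59%). This call of DNAJB13 was lost at matched depth, where excitatory over inhibitory neurons gave 0 members higher and 1 lower. The share of all genes was not taken for this pair at that depth. Within excitatory neurons the granule clusters had 6.77 CPM of DNAJB13 and the other excitatory nuclei 47.6 CPM, so the level was 7.02-fold lower (5.97 to 8.32) in granule clusters, in 8 of 8 libraries. That was 1 of 44 members measured (2.27%, against 7% of all genes), and HSPA8 was the 1 member called higher in granule clusters (2.27%, against 4.9%). The HSPA8 call was lost at matched depth too, where 0 members were called higher in granule clusters, again without a share of all genes beside it.

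The 2 divergent HSP70 genes, HSPA12A and HSPA12B, differed in pattern: HSPA12A was highest in excitatory neurons and HSPA12B in endothelial nuclei. Their ATPase domain resembles that of HSP70, and HSPA12B is known from endothelial cells. HSPA12A lay at 35.7 to 74.7 CPM by library in non-neuronal nuclei (median 59.0) and at 208 to 412 CPM in neurons (median 310.3), without overlap. Pooled it had 44.7 CPM in non-neuronal nuclei and 332 CPM in neurons, 7.42-fold lower in non-neuronal nuclei (7.15 to 7.71), with library log2 ratios of -2.62 to -2.17 around a pooled -2.89 that lies outside them. Excitatory neurons had 373 CPM, inhibitory neurons 212 CPM and immature neurons 71.1 CPM. Ependymal nuclei, at 184 CPM, and fibroblast or mural nuclei, at 118 CPM, were the exceptions among non-neuronal classes, since the others held 21.6 to 46.9 CPM.

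HSPA12B had 92.2 CPM in endothelial nuclei and 0.387 CPM in all other named nuclei, 238-fold (183 to 311), from 140 and 101 UMIs. In the 3 libraries with at least 50 endothelial nuclei it stood at 66.7, 94.96 and 115 CPM in endothelial nuclei, against 0.588, 0.545 and 0.321 CPM in the rest of the same libraries. Fibroblast or mural nuclei, at 10.0 CPM, were next. HSPA12B and HSPA8 were the 2 members called higher among 47 measured (4.26%, against 17% of all genes), and 4 were called lower (8.51%, against 19.4%). HSPA8 barely passed, at 73.1 CPM in endothelial nuclei and 36.1 CPM in the rest, 2.03-fold, with log2 ratios of 0.50 and 0.48 in libraries 1 and 2 and 1.81, from 7 UMIs, in library 6. Its call was lost with TMM scaling, equal library weights, doublets kept or at least 1000 genes per nucleus, and when library 6, 1, 5 or 8 was left out, and at 2000 to under 4000 UMIs the ratio was 1.07-fold (0.747 to 1.48).

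The small heat shock proteins were otherwise low. HSPB1 (HSP27), the stress-induced small heat shock protein, had 3.42 CPM in non-neuronal nuclei and 0.974 CPM in neurons, under the minimum. Its highest class was fibroblast or mural nuclei, at 15.04 CPM from 12 UMIs. HSPB2, beside its call in oligodendrocytes, was called higher in non-neuronal nuclei as a whole, at 59.3 CPM (49.0 to 67.6 by library) against 25.3 CPM in neurons (20.3 to 32.1), 2.35-fold (2.25 to 2.45), and the ranges did not overlap. In microglia HSPB2 was called lower, at 13.6 CPM against 33.9 CPM in the rest.

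Astrocytes had 4 members called higher of 46 measured (8.7%, against 12.9% of all genes) and 3 lower (6.52%, against 14.5%). DNAJC24, which serves diphthamide synthesis, the modification of elongation factor 2 that diphtheria toxin uses, lay at 500.01 to 566 CPM by library in astrocytes (median 533). Pooled it had 537 CPM in astrocytes and 249.6 CPM in the rest, 2.15-fold (2.10 to 2.19), with library log2 ratios of 0.99 to 1.20. DNAJC24 overlaps the gene IMMP1L in the RefSeq annotation. HSPA5, HSPA8 and DNAJB9 were the other 3. At 2000 to under 4000 UMIs none of the 4 passed 2-fold (0 called, background 8.33%): DNAJC24 had 538 CPM in astrocytes and 273 CPM in the rest, 1.97-fold (1.91 to 2.04) and higher in 8 of 8 libraries, HSPA5 1.51-fold (1.37 to 1.67) in 8 of 8, and HSPA8 1.06-fold (0.981 to 1.15) in 2 of 8.

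OPCs had 0 members called higher of 46 measured (background 6.51%) and 2 lower (4.35%, against 13%): DNAJB13, at 4.21 CPM in OPCs and 33.4 CPM in the rest, and HSPA12A, at 29.2 CPM in OPCs and 271 CPM in the rest, and the same counts came out at 2000 to under 4000 UMIs (background 3.94% and 11.2%). Microglia had 2 higher of 46 measured (4.35%, against 14.4%) and 5 lower (10.9%, against 17.2%): DNAJB13, DNAJC6, HSPA12A, HSPA4L and HSPB2. HSPA12A and DNAJB13 were called lower in OPCs, microglia, oligodendrocytes, astrocytes and endothelial nuclei alike, each time against a rest that holds the neurons and the ependymal nuclei. At 2000 to under 4000 UMIs the calls of microglia (background 15% higher and 22.2% lower) were DNAJB6, HSP90B1 and DNAJC5, at 36.6 CPM in microglia and 17.3 CPM in the rest, as higher, and 6 members as lower.

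Non-neuronal nuclei are shallower than neurons, so the comparison was repeated on 2 other scales. In UMIs per nucleus, 0 of 46 members were called higher in non-neuronal nuclei (background 5.05%) and 35 were called lower (76.1%, against 65% of all genes). HSPA5 had 11.4 UMIs per 100 non-neuronal nuclei and 13.02 per 100 neurons, HSP90AA1 had 22.6 per 100 non-neuronal nuclei and 26.2 per 100 neurons, and HSPA12A had 11.9 per 100 non-neuronal nuclei and 262 per 100 neurons. Among nuclei of 2000 to under 4000 UMIs, 12031 non-neuronal nuclei and 3143 neurons, 0 members were called higher (background 12.2%) and HSPA12A alone lower (background 10.7%), at 42.9 CPM in non-neuronal nuclei and 210.5 CPM in neurons.

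At that matched depth HSPA8 had 77.2 CPM in non-neuronal nuclei and 62.3 CPM in neurons, 1.24-fold (1.13 to 1.36), and was higher in only 3 of 8 libraries. HSP90AA1 had 85.1 CPM in non-neuronal nuclei and 63.0 CPM in neurons and was higher in 6 of 8. HSPA5 had 43.0 CPM in non-neuronal nuclei and 25.2 CPM in neurons, 1.70-fold, and was higher in 8 of 8. Immature neurons, which are shallow and high in HSPA8, are among the neurons at this depth. Without them (2299 neurons), a comparison chosen after seeing the data, HSPA8 stood at 77.2 CPM in non-neuronal nuclei and 43.3 CPM in neurons, 1.78-fold (1.59 to 2.01), higher in 5 of 8 libraries.

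HSPA5 then had 43.0 CPM in non-neuronal nuclei and 21.7 CPM in neurons, 1.98-fold, in 8 of 8 libraries. DNAJB9 had 21.6 CPM in non-neuronal nuclei and 8.61 CPM in neurons, 2.50-fold, in 7 of 8 libraries. HSPB2 was the 1 member called higher (background 13.8%), at 63.7 CPM in non-neuronal nuclei and 28.4 CPM in neurons, 2.24-fold (1.94 to 2.60), and HSPA12A the 1 called lower (background 11.5%). The higher CPM of the endoplasmic reticulum members and HSPB2 in non-neuronal nuclei thus kept its direction in at least 7 of 8 libraries at matched depth without immature neurons, and that of HSPA8 did not.

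**Figure D4:**
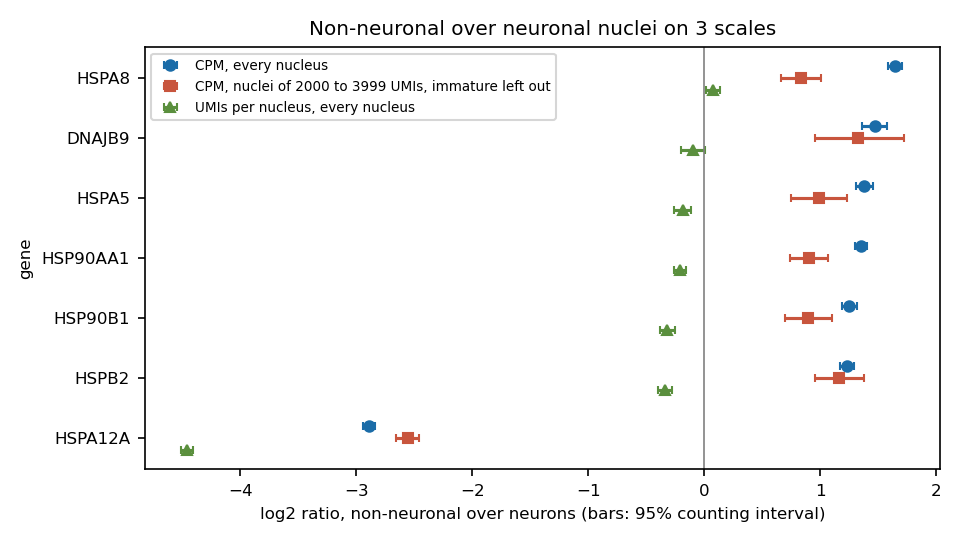
Log2 ratio of non-neuronal nuclei over neurons for the 7 called members on 3 scales. They are CPM of all nuclei, CPM of nuclei of 2000 to under 4000 UMIs with immature neurons left out, and UMIs per nucleus. Bars are 95% counting intervals; HSPA12A stays below 0 on all 3 scales, and HSPA5 is above 0 in CPM and below 0 per nucleus.

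Within excitatory neurons, the CPM of HSPA8 was lower in deeper nuclei and that of HSPA12A was not. In excitatory neurons of 1000 to under 2000, 2000 to under 4000, 4000 to under 8000 and at least 8000 UMIs, HSPA8 had 122, 50.5, 25.2 and 16.8 CPM, while HSPA12A had 278, 351, 363 and 376 CPM. Per 100 nuclei of the same 4 depths HSPA8 had 20.4, 16.1, 15.8 and 20.02 UMIs, close to a constant number, while HSPA12A climbed through 46.6, 112, 227 and 449 UMIs.

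Between excitatory nuclei of 2000 to under 4000 UMIs and those of at least 8000 (989 and 9676 nuclei), HSPA8 was the only member called higher in the shallower nuclei, by 3.01-fold (2.54 to 3.54) and in 8 of 8 libraries, and 0 were called lower. Of all 9323 genes measured, 1.07% were called higher and 0.236% lower, so HSPA8 is among 100 genes with that pattern. This depth range was chosen after seeing the data. Over the range planned, 500 to under 2000 UMIs (109 nuclei, no library with enough), 9 members passed 2-fold higher in the shallow nuclei (background 16.2%) and 2 lower (background 7.8%), led by HSPA8 at 118 CPM in shallow and 16.8 CPM in deep nuclei, 7.02-fold.

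The pooled constancy of HSPA8 did not hold inside each library. In every one of the 8 libraries HSPA8 per 100 excitatory nuclei was lower at 2000 to under 4000 than at 8000 UMIs or more, from 33.3 against 43.8 in library 1 and 24.4 against 26.3 in library 4 to 5.26 against 13.5 in library 7. HSPA12A grew more steeply in each: 70.4 against 323 in library 1. In astrocytes of 500 to under 1500 UMIs against those of at least 3000, no member was called in either direction over 5 libraries (background 0.645% higher and 0.242% lower).

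**Figure D5:**
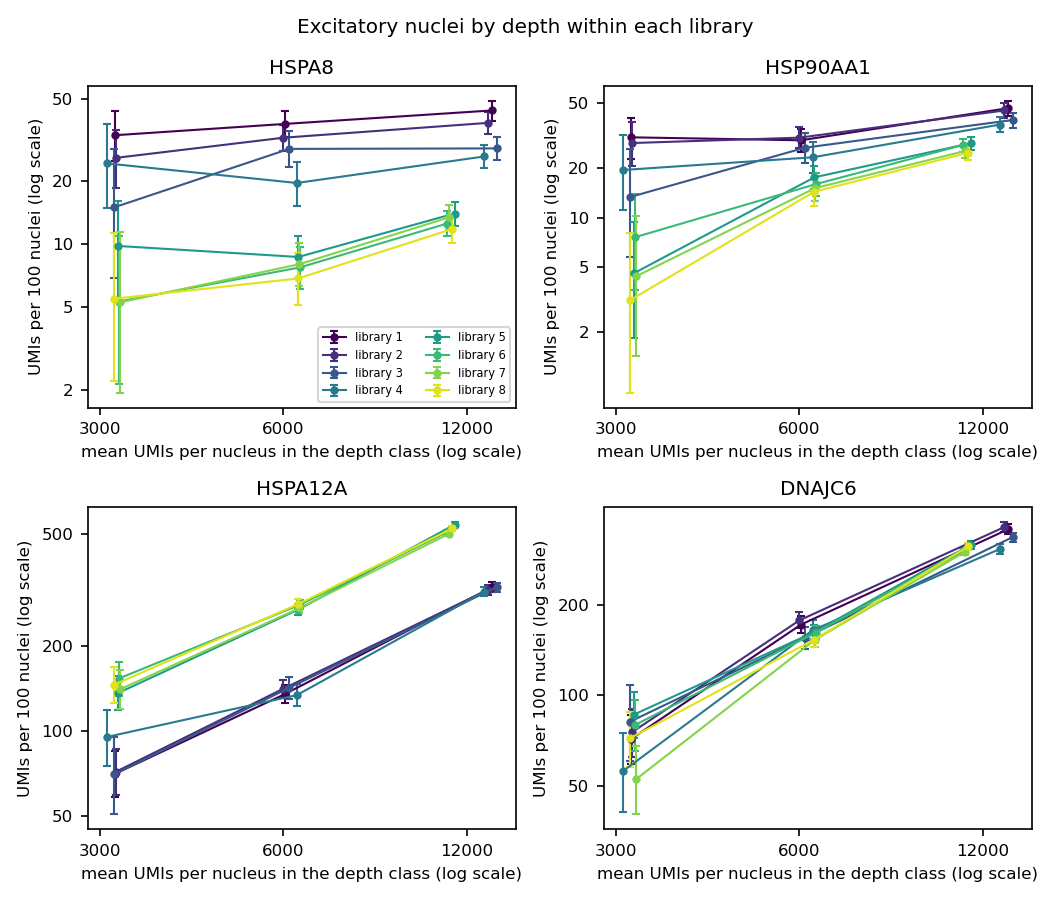
UMIs per 100 excitatory nuclei (log axis) of HSPA8, HSP90AA1, HSPA12A and DNAJC6 against the mean UMIs of nuclei of 2000 to under 4000, 4000 to under 8000 and at least 8000 UMIs (log axis), with 1 line per library and bars for 95% counting intervals. Lines of HSPA12A and DNAJC6 rise steeply in all 8 libraries; those of HSPA8 are flatter and lie at levels that differ between libraries.

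RNA free in the nuclear suspension reaches every barcode, so 8 messenger RNAs abundant in neurons were summed as a gauge. They had 1429 CPM in non-neuronal nuclei (1186 to 1920 by library) and 4102 CPM in neurons (3881 to 4189). The sum is led by SYT1, at 631 CPM in non-neuronal nuclei and 2584 CPM in neurons, and 4 of the 8 were called lower in non-neuronal nuclei. Others of the 8 were not: NRGN had 69.8 CPM in non-neuronal nuclei and 56.6 CPM in neurons, and CHN1 had 535 CPM in astrocytes and 398 CPM in excitatory neurons. The ratio of HSPA8 to NRGN lay between 0.811 and 1.13 in the non-neuronal classes other than ependymal nuclei, where it was 1.47. It was 0.869 in immature, 1.38 in inhibitory and 0.304 in excitatory neurons, and 0.697 in the barcodes that failed the filter on low counts. The ratio of DNAJC6 to NRGN ran much wider, up to 15.5 in oligodendrocytes. NRGN was picked for this ratio after values were seen, and the part of free RNA in the levels of HSPA8 was not tested.

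Barcodes under the filter offered a further view. All 1529 came from 4 of the 8 libraries, with 637177 UMIs, and were set against named nuclei of those 4 libraries, a choice made after seeing the data. Of 47 members measured, 13 were past 2-fold higher in the low-count barcodes (27.7%, against 21.4% of all genes) and 0 lower (background 3.13%). HSPA5 had 135 CPM in low-count barcodes and 14.5 CPM in named nuclei, 9.31-fold (7.42 to 11.6) from 86 UMIs, HSP90AA1 had 115 CPM in low-count barcodes and 27.0 CPM in named nuclei, 4.25-fold (3.32 to 5.35), and HSPA8 had 72.2 CPM in low-count barcodes and 13.7 CPM in named nuclei, 5.28-fold (3.85 to 7.07) from 46 UMIs. Genes of ribosomal proteins, abundant in cytoplasmic RNA, passed 2-fold in 39 of 51 cases (76.5%), and the same neuronal gauge stood at 4060 CPM in all low-count barcodes. Against all named nuclei rather than those of the same libraries, 13 members were past 2-fold higher too (background 15.5%) and 0 lower (background 3.42%), with HSPA5 at 5.87-fold and HSPA8 at 1.99-fold.

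Several members are hard to count apart from other genes. HSPA8, HSP90AA1, HSPD1 and HSPE1 have near-identical processed copies in primate genomes, so their counts are uncertain where the authors' counting could split reads. Of 60 members found in the RefSeq table, 22 overlap another protein-coding gene, among them HSPA5 (RABEPK), HSPA12A (ENO4), DNAJB9 (THAP5), DNAJC9 (MRPS16) and DNAJC19 (FXR1). No value in the files shows how overlapping reads were assigned.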

How the data were processed

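The deposited matrix holds counts that the authors made with Cell Ranger 3.1.0 per the file headers, as whole UMIs per gene and barcode; the submitters' processing notes name CASAVA 1.8 and Seurat too. The aligner's genome build is not given in the sources used here. Barcodes needed at least 500 UMIs and 300 genes. Doublets were scored per library against simulated ones (50 neighbours) and 0.8% per 1000 nuclei were removed. Counts were scaled to 10000 per nucleus, logged and clustered on 2000 variable genes without members or listed genes (30 principal components, 20 neighbours, Leiden at resolution 1.0) into 44 clusters, 39 of them named. Cell type markers were not changed after clustering, but naming thresholds (at least 3 markers, 4 for granule clusters, a lead of 0.1, 20 CPM) were settled after the clusters were seen. Comparisons used summed counts per class, 2-fold and 10 CPM. Ratios have exact conditional binomial intervals, levels exact Poisson ones. The scripts were tested on simulated data.

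Members and lists were chosen with earlier results of these data known. Members were named in full where called; HSPA5, HSPA8, HSPA9, HSP90AA1, HSP90B1, HSPD1, HSPE1, HSPH1, HSPB1, DNAJB1, DNAJB6, DNAJC5 and DNAJC6 were named in any case, and at most 8 of the largest fold per comparison and direction were given values. The planned comparison of sevoflurane with control was not run, because no source used here ties a library number to a sample. Alternatives were TMM scaling, Leiden resolutions 0.5 and 2.0, doublets kept, at least 1000 genes, libraries weighted equally, no CPM minimum, each library left out, matched depth and 5% free RNA removed. Tools were Python 3.11.15, numpy 2.4.6, scipy 1.17.1, pandas 2.3.3, scanpy 1.11.5, leidenalg 0.10.2 and matplotlib 3.10.9.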

Additional observations from a re-analysis of the deposited data

Results flagged for a closer look

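For each member called in a comparison over 4 or more libraries, the library farthest from the others was set against the range of all. Of 40 such sets, 4 had 1 library apart, against a nominal rate of 1 in 20. That rate takes no account of unequal counts, or of libraries and genes that the sets share, so no excess is read from it. HSPA12A in non-neuronal nuclei over neurons had a log2 ratio of -2.17 in library 2, against -2.62 to -2.43 in the others. DNAJB13 in astrocytes over the rest stood at -1.32 in library 4, against -0.91 to -0.58. DNAJC19 in ependymal nuclei over the rest stood at 2.02 in library 8, from 17 UMIs in ependymal nuclei, against 0.38 to 1.12. HSPD1 in ependymal nuclei over the rest stood at 0.18 in library 1, from 8 UMIs in ependymal nuclei, against 1.14 to 1.69.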

How the results depend on the processing

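No paired analysis was possible because no library can be tied to a sample number; sevoflurane against control, by edgeR, DESeq2 or with a replicate block, was not run. Library counts below 50 nuclei kept equal weights from being tried for shallow excitatory nuclei. Non-neuronal over neurons, members called lower came to 2 under TMM scaling, at least 1000 genes, 5% free RNA removed, no minimum, and clusters 11 and 12 as excitatory (added later), against 1; higher came to 10 with no minimum, 0 at 2000 to under 4000 UMIs and 1 there without immature neurons (added later), against 6. At 2000 to under 4000 UMIs, excitatory over inhibitory gave 0 higher and 1 lower (1 lower with no minimum too). Granule over other excitatory gave 0 higher and 2 lower there (0 higher with equal libraries too), and astrocytes 0 higher (background 8.33%). Endothelial nuclei had 5 of 48 measured members past 2-fold higher at that depth (background 15%), with no library holding enough nuclei to check. With no minimum, lower calls were 5 in astrocytes, 4 in OPCs and 10 each in endothelial and in shallow excitatory nuclei. Microglia had 6 higher with at least 1000 genes and 4 with equal libraries. Ependymal nuclei had 2 lower under TMM scaling, doublets kept and at least 1000 genes. Endothelial nuclei had 1 higher under TMM scaling and with equal libraries. Shallow excitatory nuclei defined as 2000 to under 4000 UMIs (added later) had 1 higher and 0 lower, where DNAJC21 turned to 0.10; DNAJC30 ran from -0.65 to 1.51 with a library left out, the lowest without library 2.

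With each library left out in turn, counts of higher and lower calls ran 6 to 6 and 1 to 2 for non-neuronal nuclei, 1 to 1 and 0 to 0 for excitatory over inhibitory, 1 to 1 and 1 to 1 for granule, 3 to 4 and 2 to 3 for astrocytes, 4 to 4 and 2 to 3 for oligodendrocytes, 0 to 0 and 2 to 3 for OPCs, 2 to 4 and 4 to 5 for microglia, 10 to 12 and 1 to 2 for ependymal nuclei, 1 to 3 and 4 to 5 for endothelial nuclei, 8 to 12 and 2 to 6 for shallow excitatory nuclei, and 0 to 1 and 0 to 1 for shallow astrocytes. TMM scaling moved non-neuronal over neurons by 0.22 on the log2 scale. Counts in this section without a background beside them describe the settings, and were not read against the share of all genes.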

Other observations

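The libraries, which the files number but tie to no sample, had unequal levels of some members within a class. HSPA8 in excitatory neurons stood at 42.9, 38.2, 25.8, 23.4, 12.9, 11.6, 12.3 and 10.6 CPM in libraries 1 to 8. HSPA8 in astrocytes stood at 132, 121, 70.4, 72.2, 22.5, 21.8, 25.4 and 19.99 CPM in the same libraries. Libraries 1 and 2, libraries 3 and 4, and libraries 5 to 8 form 3 sets that do not overlap in either class.

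HSPA12A in excitatory neurons stood at 238.5, 239.8, 238.6, 238.8, 458, 451, 440.5 and 455 CPM in libraries 1 to 8, which fall into 2 sets. DNAJB13 in ependymal nuclei stood at 211, 213, 263, 259.6, 546, 500.3, 541 and 517 CPM, with the same split. DNAJC6 in oligodendrocytes, at 801, 846, 979, 1001, 774, 869, 1003 and 817 CPM, showed no such sets. Libraries 5 to 8 had a median of 5730 to 5831 UMIs per barcode and held all the barcodes under the filter, and libraries 1 to 4 had 3189 to 3426. What these sets are was not tested.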
